A study of Mus musculus with 6 samples.

Results

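The BCL2 family decides at the outer membrane of the mitochondrion whether a stressed cell survives, and 10 of its genes were followed here: the pro-survival genes Bcl2, Bcl2l1 and Mcl1, the pore-forming effectors Bax and Bak1, and the BH3-only genes Bbc3, Pmaip1, Bcl2l11, Bid and Bad. They were chosen by symbol, and all 10 were found once each among the 22105 genes of the deposited table. RNA came from 4T1, a mouse mammary carcinoma cell line, in 2 groups of 3 samples that share the cell line and the exposure time. The control group received phosphate-buffered saline (PBS). The other group received CM-PEG-PLGA@DOX/R848 nanoparticles for 24 h, at 2 µg/mL of doxorubicin equivalents; doxorubicin (DOX) is a topoisomerase II poison and R848 (resiquimod) an agonist of Toll-like receptors 7 and 8. Empty particles and the free drugs were not analysed here, so particle and drug effects cannot be told apart. The labels do not say whether the samples of a group were separate cultures, so each p-value is set against a spread between samples that may be only technical.

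In this family, pro-survival proteins hold the effectors in check on the mitochondrial membrane. BH3-only proteins, which are induced or activated by stress, bind the pro-survival proteins or engage the effectors directly. Freed effectors assemble into pores that let cytochrome c out of the mitochondrion, and cytochrome c then starts the caspase cascade. Doxorubicin damages DNA, and p53, which responds to such damage, is known to activate transcription of Bbc3 (PUMA), Pmaip1 (NOXA) and Bax. Much of the control over these proteins, such as cleavage of BID, phosphorylation of BAD and the fast turnover of MCL1, acts on protein and cannot be seen in RNA.

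The members share a short helix, the BH3 motif, through which death proteins and survival proteins bind each other. Its coding sequence is shown for 9 members because it is the feature that makes them one family across opposite roles. The coding sequences were read from GENCODE M21 transcripts, taking for each gene the longest protein-coding transcript that holds a match, and the capitals mark the 18 bases that encode the core: a leucine, 3 further residues, a glycine, alanine or serine, and an aspartate, the next residue being aspartate, glutamate or glycine. Each of these transcripts held 1 match.
Bcl2: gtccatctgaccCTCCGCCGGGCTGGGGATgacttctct
Bcl2l1: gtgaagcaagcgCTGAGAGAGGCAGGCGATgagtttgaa
Mcl1: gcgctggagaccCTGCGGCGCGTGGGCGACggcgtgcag
Bax: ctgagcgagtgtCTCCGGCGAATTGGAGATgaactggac
Bak1: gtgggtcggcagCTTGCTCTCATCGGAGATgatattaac
Bbc3: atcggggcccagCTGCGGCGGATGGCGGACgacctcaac
Bcl2l11: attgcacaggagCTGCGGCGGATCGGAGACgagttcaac
Bid: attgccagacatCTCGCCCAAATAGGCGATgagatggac
Bad: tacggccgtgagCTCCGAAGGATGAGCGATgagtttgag

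Each library held 10596 to 10631 genes at 1 FPKM or more, but the groups stood apart at lower levels, with 13544 to 13808 genes above 0 in PBS libraries and 18319 to 18509 in nanoparticle libraries. FPKM, the unit inferred for the table, counts fragments per length of transcript and per size of the library, so levels can be compared between genes per length; the number of reads per library is unknown. Of 10 epithelial markers, 6 reached the level tested, of which 4 rose, 1 fell and 1 did not pass. Of all tested genes, 40.5% rose and 46.0% fell. Krt8 rose from 215 ± 2.58 to 343 ± 0.924 FPKM (SD, n = 3 per group, as for each mean below). The rise of Cdh1 did not pass on the TPM scale. Cldn3 fell from 24.7 ± 1.28 to 17.0 ± 0.78 FPKM. Cldn4, which did not pass, was called lower on the TPM scale (-0.30). With the trend of the log2 fold change over genomic span and exonic length removed, Cldn4 was also called lower (-0.57). Krt18, one of the rises, did not pass there (-0.07). Epcam, Krt14, Cldn7 and Esrp1 were under 1 FPKM in every library. The 12 macrophage markers summed to 22.9 to 26.6 FPKM in PBS libraries and 43.6 to 49.3 FPKM in nanoparticle libraries, most of it Cd68 and Cd14. Of the 4 that were tested 3 rose (Cd68, Csf1r and Mpeg1) and 1 fell (Cd14); Csf1r went from 0.042 ± 0.013 to 1.45 ± 0.36 FPKM and Mpeg1 from 0.082 ± 0.076 to 1.77 ± 0.104 FPKM, and both were tested only through the nanoparticle group, which fixed their direction. The other 8 stayed under 1 FPKM in every library, and 6 of the 12 (Adgre1, C1qa, C1qb, C1qc, Ptprc and Fcgr1) were listed at 0 in every PBS library. The summed level of 9 lymphocyte markers stayed between 1.28 and 3.00 FPKM. Of 7 fibroblast markers, Pdgfra alone reached 1 FPKM, and it fell from 20.5 ± 0.255 to 4.76 ± 0.344 FPKM. The other 6 stayed under 1 FPKM in every library and were not tested. Each of these was higher in all nanoparticle libraries than in any PBS library, such as Col1a1 (0.265 ± 0.006 to 0.415 ± 0.097 FPKM). The part of other cells in the results was not tested; in bulk RNA, fewer cells of a type and less RNA per cell cannot be told apart.

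Differences were tested with limma on log2(FPKM + 1), nanoparticle minus PBS, and p-values were adjusted by the Benjamini-Hochberg method over all 10863 tested genes. A gene was called when its adjusted p was under 0.05. Of the 10 members, 9 passed the filter of at least 1 FPKM in 3 libraries, each with all 6 libraries above 1 FPKM, and Pmaip1 did not. Mcl1, Bax, Bad and Bcl2l11 rose, Bcl2, Bbc3, Bcl2l1 and Bid fell, and Bak1 did not pass. The calls cut across the roles: rises and falls both occurred among the pro-survival and among the BH3-only genes. Most of the transcriptome moved too, since 40.5% of tested genes were called higher, 46.0% lower and 86.4% either way, so 8 called members of 9 is a share near the background. The median log2 fold change was -0.08 over the 9 members and -0.06 over all tested genes. Called changes of at least 2-fold numbered 2 among the members, both falls (Bcl2 and Bbc3), against 13.5% of tested genes as falls and 10.2% as rises. The libraries of the groups did not overlap for 8 of the 9 tested members, and for 87.2% of tested genes.

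**Figure D1:**
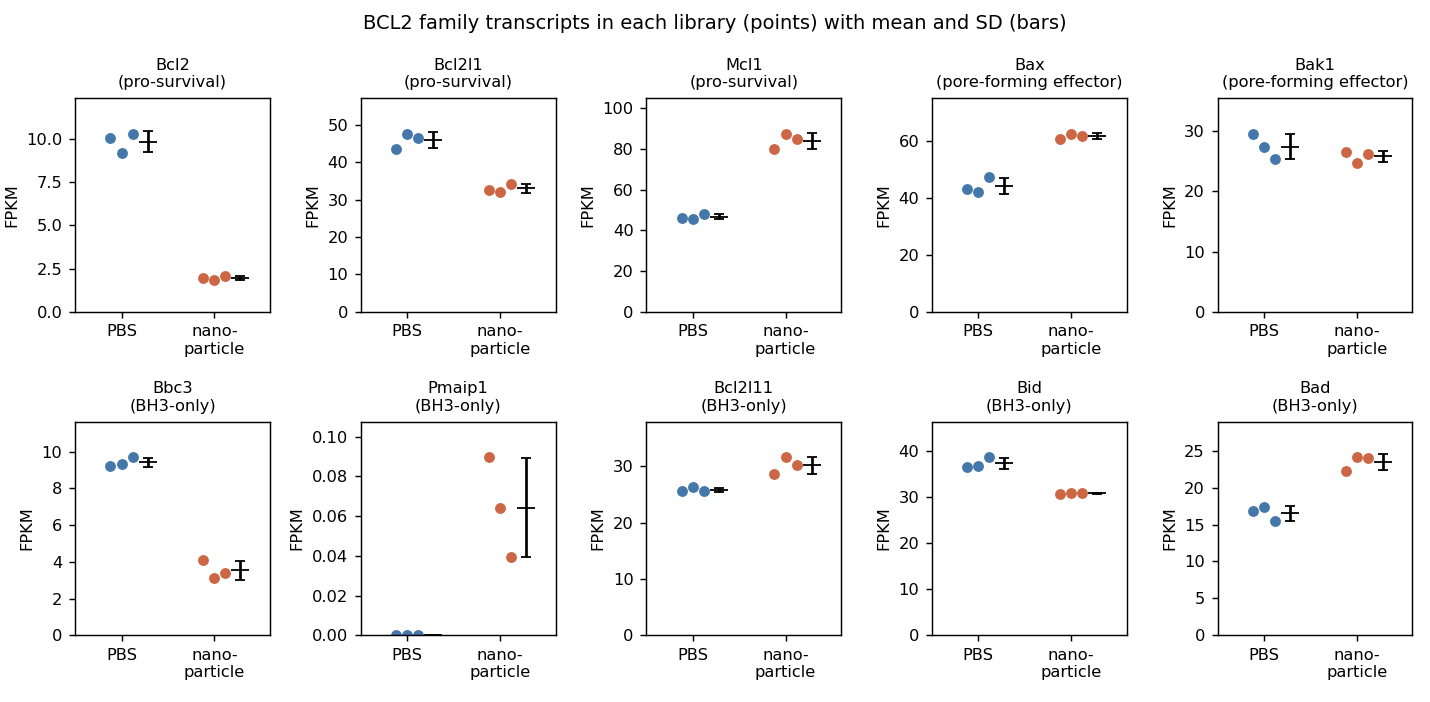
FPKM (y axes, each from 0) of the 10 members in the 3 PBS and 3 nanoparticle libraries (points), with the mean and SD of each group (bars). Bcl2 and Bbc3 sit far lower and Mcl1 far higher with nanoparticles, the points of Bak1 overlap, and Pmaip1 lies under 0.1 FPKM throughout.

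The 3 pro-survival genes parted. Bcl2, which encodes the founding survival protein of the family, was at 10.1, 9.18 and 10.3 FPKM in the PBS libraries and at 1.98, 1.83 and 2.09 FPKM in the nanoparticle libraries. Every nanoparticle library was below every PBS library. The mean went from 9.85 ± 0.593 to 1.97 ± 0.128 FPKM, a 5.01-fold fall (limma log2 fold change of -1.87 with a standard error of 0.064; adjusted p = 3.11e-09), and only 2.16% of tested genes had a lower log2 fold change. Bcl2 is the longest member, with a genomic span of 176 kb on the minus strand of GRCm38 chromosome 1, 106538178 to 106714274. Of the 1202 tested genes that span at least 100 kb, 89.5% were called lower, against 25.7% of the 2658 genes that span under 10 kb. With the trend of the log2 fold change over genomic span and exonic length removed, Bcl2 was still called lower, at -0.86.

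Bcl2l1, the source of the survival protein BCL-XL and, by splicing, of a death-promoting short form, was at 43.6, 47.7 and 46.4 FPKM with PBS and at 32.6, 32.1 and 34.2 FPKM with nanoparticles. Its groups did not overlap either. The fall was 1.39-fold (limma log2 fold change of -0.46 with a standard error of 0.041; adjusted p = 2.92e-06). With the trend over span and length taken out it was -0.21 and still called. The gene spans 51.1 kb on chromosome 2, 152780668 to 152831728, and the values do not separate its splice forms.

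Mcl1, a survival gene whose RNA and protein are both short-lived, moved the other way. It was at 46.3, 45.7 and 48.2 FPKM with PBS and at 79.9, 87.6 and 84.8 FPKM with nanoparticles. All nanoparticle libraries were above all PBS libraries, and the mean went from 46.7 ± 1.30 to 84.1 ± 3.92 FPKM, a 1.80-fold rise (limma log2 fold change of 0.83 with a standard error of 0.039; adjusted p = 2.40e-08). Mcl1 is also the shortest member, spanning 4.39 kb on chromosome 3, 95658788 to 95663176, and 60.2% of tested genes under 10 kb were called higher. It was still higher with the trend over span and length taken out (0.43).

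The summed RNA of these 3 pro-survival genes therefore changed more in makeup than in total. The summed FPKM of the 3 genes was 99.9 to 105 with PBS and 114 to 122 with nanoparticles. Mcl1 supplied 45.6 ± 0.924% of it with PBS and 70.6 ± 1.27% with nanoparticles, while Bcl2l1 went from 44.8 ± 1.51% to 27.7 ± 1.15% and Bcl2 from 9.62 ± 0.587% to 1.65 ± 0.126%. These shares are formed within a library and do not depend on how libraries are scaled against each other. The sum of the 3 genes does depend on it. Whole libraries summed to 421544 to 425231 FPKM with PBS and to 468387 to 472870 FPKM with nanoparticles. The ratio of Mcl1 to Bcl2l1 was 1.06, 0.959 and 1.04 in the PBS libraries and 2.45, 2.73 and 2.48 in the nanoparticle libraries. In PBS libraries the genes stood at about the same level per length, and in every nanoparticle library Mcl1 was well above Bcl2l1. The log2 fold changes of Mcl1 and Bcl2l1 differed by 1.30, and by 0.64 with the trend over span and length taken out.

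The 2 effectors differed from each other. Bax, which moves from the cytosol into the mitochondrial membrane when activated, was at 42.9, 42.0 and 47.4 FPKM with PBS and at 60.5, 62.5 and 61.7 FPKM with nanoparticles. Its groups did not overlap, and the rise was 1.40-fold (limma log2 fold change of 0.47 with a standard error of 0.044; adjusted p = 4.16e-06). The gene spans 5.20 kb on chromosome 7, 45461697 to 45466898, and with the trend over span and length taken out its log2 fold change was 0.02, which did not pass (adjusted p = 0.678, limma).

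Bak1, the effector that resides in the mitochondrial membrane, was at 29.6, 27.3 and 25.3 FPKM with PBS and at 26.5, 24.8 and 26.2 FPKM with nanoparticles. The groups overlapped, and the log2 fold change of -0.08 (95% interval -0.21 to 0.04, adjusted p = 0.197, limma) did not pass. This result depended on the setting: Bak1 was called lower on the TPM scale (-0.23), without PBS replicate 3 (-0.13) and after removal of the trend over span and length (-0.45). The ratio of Bax to Bak1 was 1.45 to 1.87 in PBS libraries and 2.28 to 2.52 in nanoparticle libraries, without overlap. Bak1 spans 9.20 kb on chromosome 17, 27019810 to 27029009.

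**Figure D2:**
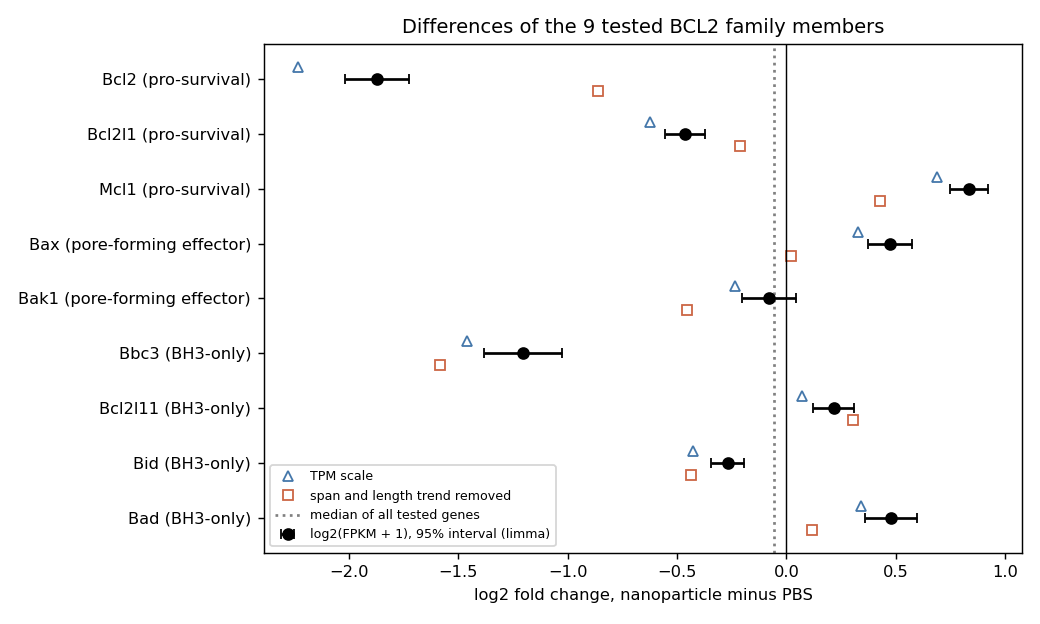
Log2 fold change (x axis, nanoparticle minus PBS) of the 9 tested members with 95% intervals (black), and the same on the TPM scale (triangles) and with the trend over span and length taken out (squares); the dotted line is the median of all tested genes, at -0.06. Every tested member keeps its side of 0 under these 2 settings, while Bax moves to 0.02 and Bcl2 to -0.86 once the trend is removed.

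Among the BH3-only genes, Bbc3 changed most. Bbc3 encodes PUMA, a strong death inducer and a classical p53 target. It was at 9.24, 9.34 and 9.69 FPKM with PBS and at 4.10, 3.11 and 3.41 FPKM with nanoparticles. Every nanoparticle library lay under 5 FPKM and every PBS library above 9 FPKM. The fall was 2.66-fold (limma log2 fold change of -1.20 with a standard error of 0.078; adjusted p = 2.76e-07). Bbc3 spans 9.81 kb on chromosome 7, 16308393 to 16318205, and its fall was larger (-1.58) with the trend over span and length taken out. Trp53, which encodes p53, went the other way, with a 1.34-fold rise to 37.5 ± 1.89 FPKM. Its limma log2 fold change was 0.41 (adjusted p = 2.18e-05, limma), and the rise did not pass once the trend was taken out (0.05). Whether these cells hold a working p53 protein was not tested, and the RNA level of Trp53 does not show it.

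Pmaip1, which encodes NOXA, a BH3-only protein that binds MCL1, was listed at 0 in all 3 PBS libraries and at 0.0896, 0.0638 and 0.0395 FPKM in the nanoparticle libraries. It was therefore near the floor in both groups and below the level tested, and no fold is given against values listed at 0. The pattern was common: of 7328 genes listed at 0 in every PBS library, 2632 (35.9%) were above 0 in every nanoparticle library, with a median level of 0.101 FPKM, whereas of 2081 genes listed at 0 in every nanoparticle library 9 were above 0 in every PBS library. The part of this difference between the groups in the Pmaip1 values was not tested.

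Bcl2l11 encodes BIM, which binds every pro-survival protein of the family. It was at 25.6, 26.3 and 25.6 FPKM with PBS and at 28.6, 31.6 and 30.3 FPKM with nanoparticles. The groups were apart by a small margin, and the rise was 1.17-fold (limma log2 fold change of 0.22 with a standard error of 0.041; adjusted p = 0.000714). On the TPM scale it did not pass (0.07, adjusted p = 0.173, limma). The ratio of Bcl2l11 to Bbc3 was 2.64 to 2.81 in PBS libraries and 6.98 to 10.1 in nanoparticle libraries. Bcl2l11 spans 36.5 kb on chromosome 2, 128126038 to 128162547.

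Bid, whose protein is cut by caspase-8 and so links death receptors to the mitochondrion, was at 36.6, 36.8 and 38.7 FPKM with PBS and at 30.7, 31.0 and 30.8 FPKM with nanoparticles. The nanoparticle libraries were nearly alike and all below the PBS libraries, a 1.21-fold fall (limma log2 fold change of -0.27 with a standard error of 0.033; adjusted p = 3.33e-05) that was larger, at -0.44, with the trend taken out. Bad, whose protein is held inactive in the cytosol by phosphorylation, was at 16.8, 17.4 and 15.4 FPKM with PBS and at 22.2, 24.1 and 24.0 FPKM with nanoparticles. Its groups did not overlap, and the rise was 1.42-fold (limma log2 fold change of 0.48 with a standard error of 0.053; adjusted p = 1.46e-05). With the trend over span and length taken out, the rise of Bad was 0.12 and did not pass (adjusted p = 0.067, limma).

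Bid spans 24.9 kb on chromosome 6, 120891930 to 120916853, and Bad spans 10.04 kb on chromosome 19, 6941861 to 6951899. No source used here says whether the libraries or the counting kept strand, and 4 members share exonic bases with an annotated gene on the opposite strand. These are Bcl2 (D630008O14Rik), Bak1 (Ggnbp1), Bid (Bcl2l13) and Bad (Gpr137), so reads from these stretches cannot be assigned to one strand. The highest level of such a partner in any library was 10.5 FPKM for Bcl2l13, 4.79 FPKM for Ggnbp1 and 4.25 FPKM for Gpr137. Bax shares exonic bases with Gm45808 on its own strand, which was listed at 0 in every library.

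Rescaling to TPM (each library brought to the same sum) moved the median of all tested genes from -0.06 to -0.19, a shift of -0.13. The filter was applied anew on that scale, so the medians cover 10863 genes on the deposited scale and 11508 on the TPM scale. TPM values are also larger than the deposited ones, so the added 1 weighs less in them. Measured against the median of each scale, most members moved little: Bcl2l11 stood 0.27 above the median on the deposited scale and 0.26 above it on the TPM scale, and Bak1 stood at -0.02 and -0.04. Bax stood 0.53 above the median on the deposited scale and 0.52 on the TPM scale, while Bcl2 moved from -1.81 to -2.04. The part of the gene set and of the added 1 in these moves was not tested.

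**Figure D3:**
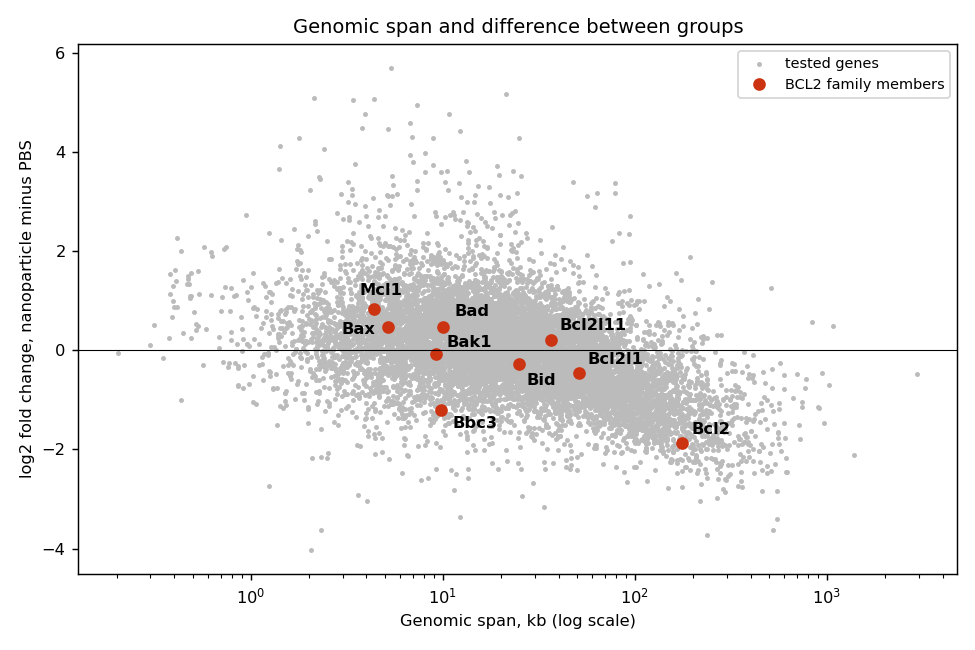
Log2 fold change (y axis, nanoparticle minus PBS) against genomic span in kb (x axis, log scale) for tested genes (grey) and the 9 tested members (red). Genes of long span lie mostly below 0, with Bcl2 (176 kb, -1.87) among them, while Bbc3 (9.81 kb, -1.20) is far below most genes of its span.

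The order of the levels per length also shifted. With PBS, Mcl1 (46.7 FPKM), Bcl2l1 (45.9 FPKM) and Bax (44.1 FPKM) stood at the top with overlapping libraries, followed by Bid (37.4 FPKM), then Bak1 (27.4 FPKM) and Bcl2l11 (25.8 FPKM), which overlapped, and Bad (16.5 FPKM). Bcl2 (9.85 FPKM) and Bbc3 (9.42 FPKM) overlapped near the bottom. With nanoparticles, Mcl1 (84.1 FPKM) was followed by Bax (61.6 FPKM), with clear gaps, and then by Bcl2l1 (33.0 FPKM) and by Bid (30.9 FPKM) and Bcl2l11 (30.2 FPKM), which overlapped. Bak1 (25.8 FPKM) and Bad (23.4 FPKM) came next, and Bbc3 (3.54 FPKM) and Bcl2 (1.97 FPKM) were last before Pmaip1. Replicates were tight for most members: the coefficient of variation was at most 7.76% in the PBS group (Bak1) and 14.3% in the nanoparticle group (Bbc3) among the tested members.

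The ratio of Bax to Bcl2, often used as a simple gauge of the death and survival balance, was 4.26, 4.58 and 4.60 in the PBS libraries and 30.6, 34.1 and 29.6 in the nanoparticle libraries. It went from 4.48 ± 0.189 to 31.4 ± 2.36, a 7.02-fold rise, with no overlap (log2 difference 2.81, two-sided exact permutation test p = 0.1, the smallest that 3 against 3 samples allow). The ratio sets one of the shortest members (5.20 kb) against the longest (176 kb). On the log2(FPKM + 1) scale of the fit, the fold changes of Bax and Bcl2 differed by 2.35, and by 0.88 with the trend over span and length taken out, which is 37.6% of the first value. The same ratio against Mcl1 went the other way, from 0.943 ± 0.035 to 0.733 ± 0.023. Over all members the shift was small, though without overlap: the summed FPKM of effectors and BH3-only genes divided by that of the pro-survival genes was 1.61, 1.55 and 1.55 with PBS and 1.51, 1.46 and 1.46 with nanoparticles. The direction of a death to survival ratio thus turned on which survival gene was taken. BH3-only genes made up 33.9 ± 0.42% of the family's FPKM with PBS and 29.9 ± 0.169% with nanoparticles, and effectors 27.2 ± 0.658% and 29.7 ± 0.564%. Among the BH3-only genes, the share of Bbc3 went from 10.6 ± 0.235% to 4.03 ± 0.679% and that of Bad from 18.6 ± 1.14% to 26.6 ± 0.654%.

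**Figure D4:**
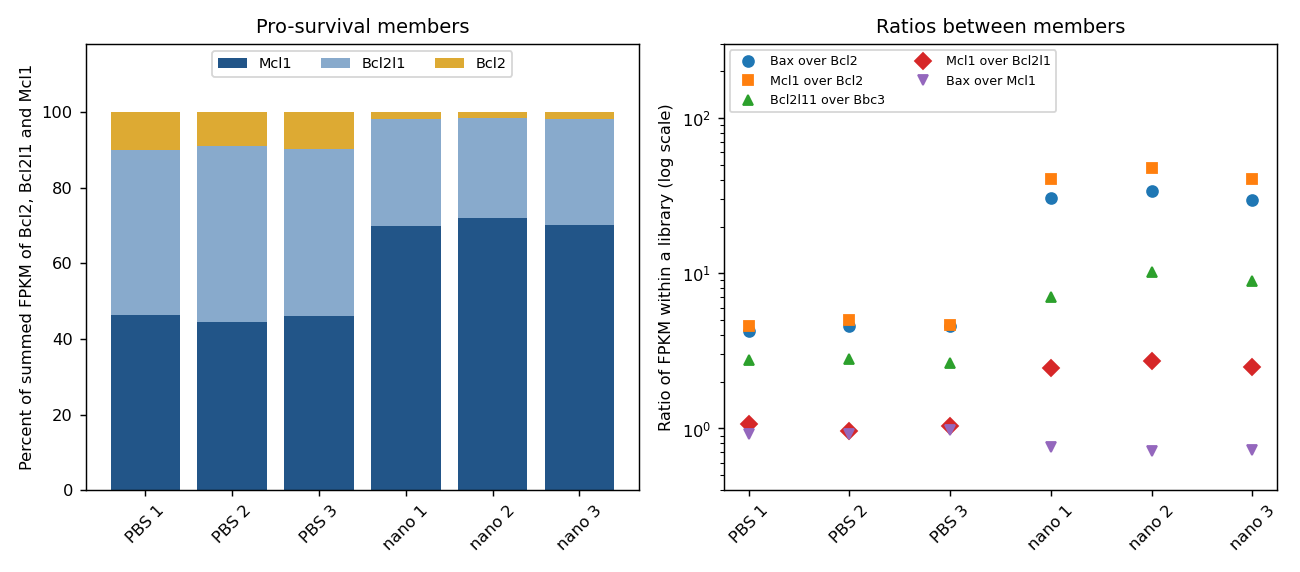
Left, percent of the summed FPKM of Mcl1, Bcl2l1 and Bcl2 that each supplied in each library (stacked bars, 3 PBS then 3 nanoparticle libraries); right, ratios of FPKM between members within each library (points, log scale). Mcl1 supplied 44.6% to 46.3% in PBS libraries and 69.8% to 72.1% in nanoparticle libraries, and the Bax to Bcl2 ratio lay between 4.26 and 4.60 and between 29.6 and 34.1.

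The 250 bases before the RefSeq start site are shown for the member that rose most (Mcl1), the members that fell most (Bcl2 and Bbc3) and the effector that rose (Bax), from the RefSeq promoter table (GRCm38.p6), on the strand of the gene. Where RefSeq gives several starts the most upstream one was taken. These starts do not all match the GENCODE models: the RefSeq start lies 16 bases before the GENCODE gene for Bcl2, 67 bases before it for Mcl1 and 1190 bases inside it for Bbc3, and in these 3 genes the 20 bases after the start are in no GENCODE transcript of the gene. The start of Bax is the same in both. Capitals mark matches on either strand to the p53 half-site, the NF-kB site, the AP-1 site TGANTCA, the CRE TGACGTCA, the FOXO site TGTTTAC, the E-box CACGTG, the GC box GGGCGG, the CCAAT box and the TATA box TATAAA.
Mcl1 (chr3:95658471-95658720, plus strand): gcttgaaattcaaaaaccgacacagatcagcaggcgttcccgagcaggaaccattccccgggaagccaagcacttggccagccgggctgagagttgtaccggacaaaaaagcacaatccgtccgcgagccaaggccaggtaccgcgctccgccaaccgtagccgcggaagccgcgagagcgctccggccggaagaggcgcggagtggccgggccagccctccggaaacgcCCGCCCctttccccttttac
Bcl2 (chr1:106714291-106714540, minus strand): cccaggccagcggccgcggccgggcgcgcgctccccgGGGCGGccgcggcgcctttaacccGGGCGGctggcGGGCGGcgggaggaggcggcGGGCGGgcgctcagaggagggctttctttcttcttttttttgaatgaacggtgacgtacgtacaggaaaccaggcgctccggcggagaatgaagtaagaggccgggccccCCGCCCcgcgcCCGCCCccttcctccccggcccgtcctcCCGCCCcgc
Bbc3 (chr7:16309333-16309582, plus strand): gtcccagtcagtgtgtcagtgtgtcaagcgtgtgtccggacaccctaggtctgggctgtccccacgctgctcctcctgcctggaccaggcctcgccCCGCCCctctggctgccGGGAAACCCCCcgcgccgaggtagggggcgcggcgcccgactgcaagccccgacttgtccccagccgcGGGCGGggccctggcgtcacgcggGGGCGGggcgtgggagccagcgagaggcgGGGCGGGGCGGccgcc
Bax (chr7:45466899-45467148, minus strand): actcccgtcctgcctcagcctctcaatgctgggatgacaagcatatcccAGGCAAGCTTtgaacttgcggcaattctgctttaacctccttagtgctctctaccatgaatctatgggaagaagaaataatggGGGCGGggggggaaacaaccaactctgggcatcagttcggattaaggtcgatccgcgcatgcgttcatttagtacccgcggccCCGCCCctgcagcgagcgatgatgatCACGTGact
Bax held 1 p53 half-site match, which 7.13% of all 32851 promoter windows of this length held, and 1 E-box match, which 6.02% held. Bbc3 held 2 overlapping NF-kB matches (7.25% of windows held at least 1) and 5 GC box matches, some of them overlapping. Bcl2 held 7 GC box matches, Mcl1 held 1 and Bax held 2, and 32.7% of windows held at least 1. The bases were 76.4% G or C in the Bbc3 window, 74.8% in Bcl2, 64.4% in Mcl1 and 54.0% in Bax, against a median of 52.4% over all windows. A match is a description of letters and not of binding.

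The profile most like that of Mcl1 over the 6 libraries, by Euclidean distance of log2(FPKM + 1), was Ciao2a (distance 0.088), from 47.6 to 85.0 FPKM in the group means, followed by Adrm1 (0.092), a proteasome ubiquitin receptor, and Flnc (0.106), an actin-binding filamin. For Bcl2 the nearest were Mgat5 (0.164), a glycan-branching enzyme that went from 10.3 ± 0.413 to 1.97 ± 0.063 FPKM, Myo6 (0.214), a myosin motor, and Ak1 (0.25), an adenylate kinase.

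The rest of the family was mostly low or lower. Of 5 other pro-survival genes, Bcl2l2 (BCL-W) alone was tested and fell from 11.5 ± 0.953 to 6.13 ± 0.655 FPKM, while Bcl2a1a, Bcl2a1b, Bcl2a1d and Bcl2l10 were listed at 0 in every PBS library and stayed under 1 FPKM with nanoparticles; the Bcl2a1 genes are close copies whose reads can be shared. All 3 tested genes among 5 other BH3-only genes fell, where 46.0% of all tested genes were called lower, and so small a count was not tested against that share. Bmf fell from 3.67 ± 0.217 to 1.08 ± 0.108 FPKM, Bnip3, which also serves mitophagy, from 42.3 ± 2.08 to 19.5 ± 1.28 FPKM, and Bnip3l by 0.19 on the log2 scale. Bik and Hrk stayed under 1 FPKM. These falls were called on every scale tried. Among 4 other multidomain genes, Bok, an effector relative, fell by 0.36, Bcl2l13 rose by 0.26, and Bcl2l15 rose from 0.222 ± 0.09 to 6.04 ± 0.958 FPKM. Since no PBS library held Bcl2l15 at 1 FPKM, it could enter the test through the nanoparticle group alone, which fixed its direction.

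Genes that act downstream of the pore moved in both directions, and their counts depended on the trend over span and length. Of 5 genes for proteins released from mitochondria, 4 rose, 0 fell and 1 did not pass (Aifm1, called lower on the TPM scale), where 40.5% of all tested genes rose; with the trend taken out 2 rose and 3 missed the threshold. The cytochrome c gene, Cycs, went from 9.72 ± 0.093 to 69.0 ± 1.24 FPKM, and Endog (0.59) and Diablo (0.52), an antagonist of caspase inhibitors, rose less on the log2 scale; Endog and Htra2 did not pass with the trend over span and length taken out. Of 9 apoptosome, caspase and inhibitor genes, 1 rose, 6 fell and 2 did not pass, where 46.0% of all tested genes fell. The 6 falls included the inhibitor genes Xiap and Birc3, of which Xiap did not pass with the trend removed (0.04). Birc5 (survivin), which also acts in mitosis, rose from 71.1 ± 2.69 to 175 ± 7.67 FPKM. Apaf1, the scaffold that cytochrome c binds, fell from 4.90 ± 0.207 to 2.59 ± 0.133 FPKM, although it spans 93.5 kb and did not pass with the trend removed (-0.04), and Casp6 fell by 0.66 on the log2 scale. With the trend removed, the 9 genes split into 2 higher, 4 lower and 3 that did not pass. The median log2 fold change was 0.52 in the first list and -0.28 in the second, and 0.04 and -0.13 with the trend taken out, against -0.06 and -0.08 over all tested genes. Of the 4 partners in the outer membrane, Vdac1 and Vdac3 fell by 0.45 and 0.31 and Mtch2, a receptor for cleaved BID, rose by 0.45; Vdac2, which binds BAK, rose by 0.07 but was called lower on the TPM scale (-0.08) and with the trend removed (-0.17).

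**Figure D5:**
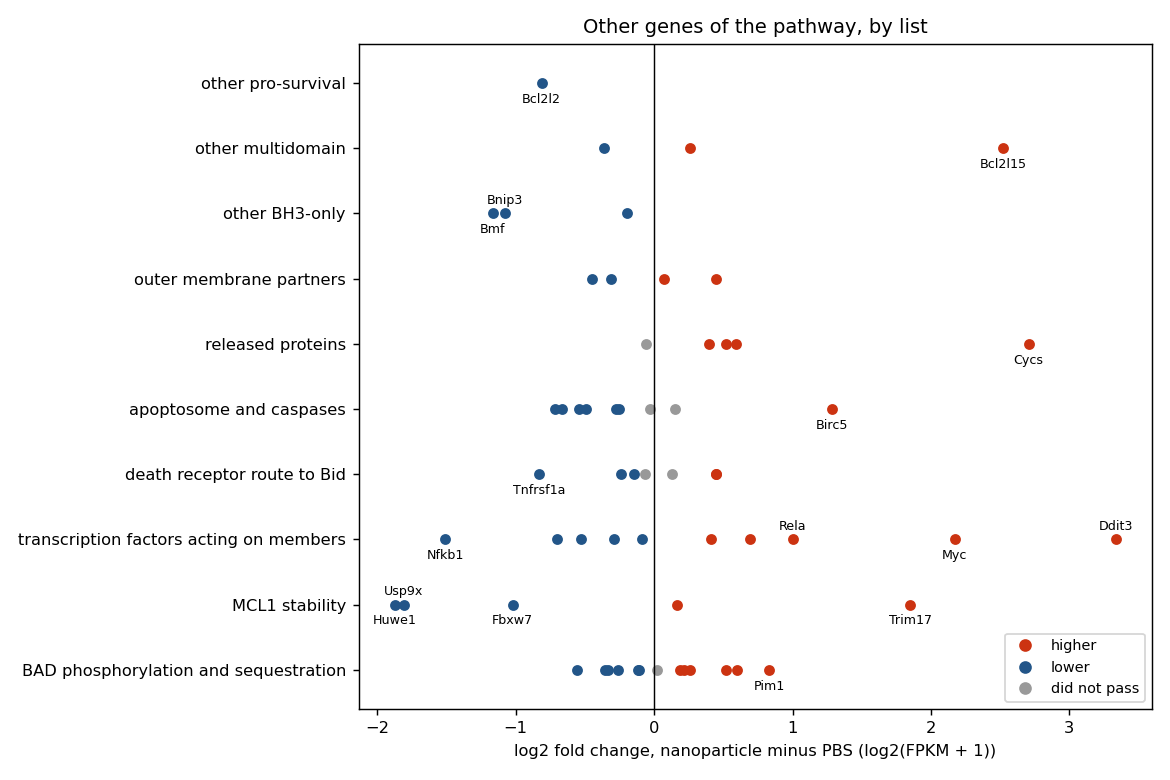
Log2 fold change (x axis, nanoparticle minus PBS) of each tested gene of the 10 pathway lists (rows), coloured by its call; genes beyond 0.8 in size are named. Rises and falls occur side by side in most lists, with Ddit3 (3.34) and Cycs (2.71) farthest to the right and Huwe1 (-1.87) and Usp9x (-1.81) farthest to the left.

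The genes that act on the members moved in both directions, as did tested genes at large (40.5% called higher, 46.0% lower). The counts below were not tested against those shares. Of 10 tested transcription factors known to act on BCL2 family genes, 5 rose and 5 fell, with a median log2 fold change of 0.16: Ddit3 (CHOP), which can repress Bcl2 and induce Bcl2l11 under endoplasmic reticulum stress, went from 30.8 ± 0.663 to 321 ± 5.56 FPKM, Myc from 47.3 ± 2.16 to 216 ± 5.33 FPKM, and Nfkb1 fell from 58.3 ± 0.984 to 19.8 ± 0.748 FPKM. Whether any of these factors acted on a member in these cells was not tested. Of the 5 falls, Atf4 did not pass under median-of-ratios scaling or with mitochondrial genes out of the totals. With the trend removed, Foxo1, Stat3 and Trp53, the last being 1 of the 5 rises, did not pass. Foxo3 turned from lower to higher (0.14), which left 5 higher, 2 lower and 3 that did not pass. Trp73 was under 0.1 FPKM in every library. Of 5 genes that set the stability of the MCL1 protein, 2 rose and 3 fell. Huwe1, a ubiquitin ligase for MCL1, fell from 28.8 ± 0.362 to 7.13 ± 0.26 FPKM. Usp9x, the deubiquitinase that spares MCL1, fell by a like amount, from 18.9 ± 0.584 to 4.68 ± 0.195 FPKM, and Trim17, another ligase for MCL1, rose from 0.114 ± 0.024 to 3.06 ± 0.636 FPKM, a direction that the filter fixed. Huwe1 and Usp9x span 135 kb and 102 kb. Marchf5 rose by 0.17 on the log2 scale, did not pass on the TPM scale and was called lower with the trend removed (-0.16), where Fbxw7 did not pass.

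On the route from death receptors to BID, 2 of 7 genes rose, 3 fell and 2 did not pass. Of all tested genes, 40.5% rose and 46.0% fell. Tnfrsf1a, a tumour necrosis factor receptor, fell from 53.7 ± 0.55 to 29.8 ± 0.475 FPKM, Tnfrsf10b, a receptor for TRAIL, rose 1.38-fold to 38.6 ± 1.14 FPKM, and Cflar, an inhibitor of caspase-8, rose from 14.9 ± 0.143 to 20.6 ± 0.431 FPKM. Casp8 itself was at 34.7 ± 3.27 and 38.0 ± 1.81 FPKM (log2 fold change 0.13) and did not pass, except under median-of-ratios scaling, with mitochondrial genes out of the totals and with the trend over span and length removed, where it was higher. Ripk1, one of the 3 falls, lost its call under the same 3 settings, and Fadd, the other gene that did not pass, was called lower with the trend taken out (-0.47). Of 13 kinases and 14-3-3 proteins that phosphorylate or bind BAD, 6 rose, 6 fell and 1 did not pass. Like the count for the death receptor route, this was not tested against the shares of all tested genes. Pim1 rose by 0.83 and Ywhag by 0.60 on the log2 scale, and Ywhae fell from 324 ± 1.84 to 220 ± 3.17 FPKM. On the TPM scale 4 of these 13 were called higher and 7 lower, and with the trend removed 2 were higher and 6 lower, Ywhah turning from higher to lower (-0.12).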

How the data were processed

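RNA from 6 samples was sequenced as mRNA libraries, per the labels' protocols. The deposited table holds 1 column per sample and no unit in its header. Its FPKM unit was inferred from the values, which the authors deposited as decimals and which, multiplied by exonic length, gave closely similar library totals. STAR and featureCounts, with builds GRCm38 and mm10, are named per the submitters' processing notes; neither the program behind the FPKM values nor the annotation release is stated in those notes. Another 701 features carried no gene identifier (0.631% to 0.67% of summed FPKM) and stayed out. Low values showed no steps of whole reads: when replicate libraries were divided by each other, no bin held more than 1.99% of the ratios, so depth is unknown.

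Values were transformed to log2(FPKM + 1), a scale that understates the change of low genes. Genes that reached 1 FPKM in 3 libraries entered the fit, made in limma 3.58.1 (R 4.3.3, with statmod 1.5.0; trend and robust settings, no replicate block), tested on simulated data first, with Benjamini-Hochberg adjustment. Ratios used scipy 1.17.1 and figures matplotlib 3.10.9. Gene positions came from GENCODE M21 (GRCm38). Alternatives were a pseudocount of 0.1, no filter or 5 FPKM, a replicate block, each library left out, 3 rescalings, limma without trend and robust settings, and a test against a 1.5-fold change; removing the trend with span and length was added after seeing the data. The members and lists were chosen with earlier results of these data known. In each list all genes were counted, and those named with values were up to 3 called genes with the largest log2 fold changes and genes below the level tested; other list genes, such as Trp53, Casp8, Bnip3l and those named for a call that changed with a setting, were named after their values were seen.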

Additional observations from a re-analysis of the deposited data

How the results depend on the processing

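Over 16 alternatives, 133 of 144 member values kept their direction and their side of the threshold, 8 lost the call, 3 gained one and 0 reversed. In the test against a 1.5-fold change, 1 member was called higher (Mcl1) and 2 lower (Bcl2 and Bbc3), and 1853 and 2341 of all tested genes were called higher and lower. With the span and length trend removed, 2 members were called higher (Mcl1 and Bcl2l11) and 5 lower (Bcl2, Bcl2l1, Bak1, Bbc3 and Bid), and the gap between the log2 fold changes of Bax and Bcl2 was 0.88 in place of 2.35. With no filter on low values, 8445 genes were called higher, and Pmaip1 had a log2 fold change of 0.09 (adjusted p = 0.00693, limma). Leaving out 1 library at a time gave 4 to 4 members called higher, 4 to 5 lower, 4077 to 4328 genes higher and 4663 to 4947 lower; the log2 difference of the Bax to Bcl2 ratio ranged from 2.75 to 2.85 and the difference in the pro-survival share of family FPKM from 1.18 to 1.75 percentage points. The fit with a replicate block called 4389 genes higher and 4982 lower and changed no member's call. The labels do not say that same-numbered samples belong together. The correlations of their deviations from the group means were -0.0141, -0.0428 and 0.0411, and those of differently numbered pairs ran from -0.0768 to 0.0943. These values cannot show whether same-numbered samples shared a culture or a day. Depth is unknown, which limits statements about genes near 0, such as Pmaip1.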
